A study of Homo sapiens with 6 samples.

Results

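The genes described here encode the enzymes that add phosphate to translation initiation factor eIF2alpha and take it off again, with the proteins that steer the kinase GCN2. They were the 10 rows of the deposited tables whose Ensembl identifier carries the symbol EIF2AK1, EIF2AK2, EIF2AK3, EIF2AK4, GCN1, IMPACT, DNAJC2, PPP1R15A, PPP1R15B or PPP1CA in GENCODE 44, out of 60676 genes, and all 10 passed the filter on low counts. RNA was taken from HT29, a wild-type human colorectal adenocarcinoma cell line, after 48 h in control medium (untreated), in medium without histidine (histidine depletion) or in medium without tryptophan (tryptophan depletion), with 2 libraries for each of the 3 conditions. The media without histidine were built on RPMI-1640 and those without tryptophan on DMEM F-12, all with dialyzed serum. Neither the base nor the serum of the control medium is given for the RNA-seq experiment. For proteomic treatments the paper names full RPMI-1640 as the control. Loss of the amino acid and a change of base medium or serum cannot be told apart in either comparison with untreated cells. Nor can the missing amino acid and the base medium in the direct comparison of the depletions, whose media differ in both. All values come from 1 cell line, and the labels do not say whether the samples were separate cultures. The p-values therefore rest only on spread between these samples. In limma the variance of each gene was moderated toward a trend over all tested genes. With 2 libraries per condition, SEs and small p-values thus depend largely on that pooled variance, not on the gene's own replicates alone.

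Phosphorylation of eIF2alpha lowers translation initiation on most mRNAs and is the entry point of the integrated stress response. Each of the 4 kinases answers to a different signal: GCN2 (EIF2AK4) to uncharged tRNA and stalled ribosomes, PERK (EIF2AK3) to unfolded protein in the endoplasmic reticulum, PKR (EIF2AK2) to double-stranded RNA, and HRI (EIF2AK1) to heme shortage and mitochondrial stress. The phosphate is removed by protein phosphatase 1 (PP1), whose catalytic subunit is brought to eIF2alpha by GADD34 (PPP1R15A), which is induced under stress, or by CReP (PPP1R15B), which is made constitutively. RNA-seq measures the mRNA of these proteins, not their phosphorylation or activity.

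Reads counted on genes, as recovered from the deposited values, summed to between 46390819 and 64388876 per library. Of these, 96.9% to 97.5% lay on protein-coding genes and 2.42% to 3.83% on the mitochondrial genome. The sums lie above the average number of paired reads per sample that the paper gives, and the reason was not tested. Paired libraries of a condition differed by more than counting noise, with a chi-square per degree of freedom of 8.77 for untreated, 4.03 for histidine depletion and 1.85 for tryptophan depletion. Of 8 colon epithelial markers, all were detected in untreated libraries and CDX1 was at 0 after histidine depletion. Their summed normalized count was 374620 to 398685 in untreated libraries, 508137 to 534387 after histidine depletion and 539332 to 541458 after tryptophan depletion, with the keratin KRT8 the largest part after histidine depletion. That sum covers markers that went both ways: without histidine 4 rose (EPCAM, CDH1, KRT8 and KRT20) and 4 fell (KRT18, VIL1, CDX2 and CDX1). Of 8 markers of blood, stromal and other cells, 5 were at or under 3 reads in every library. Their sum, nearly all of it LYZ, was 64878 to 69490 in untreated libraries, 12456 to 14488 after histidine depletion and 38105 to 38138 after tryptophan depletion. The part of these shifts in the results was not tested, and in bulk RNA fewer cells of a kind and less RNA per cell cannot be told apart.

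Histidine depletion raised 5 members and lowered 4, with PPP1R15A far ahead of the others, while tryptophan depletion raised 6 members, all 4 kinases among them, and lowered 2. These counts stand against a background in which much of the transcriptome moved. After histidine depletion limma called 39.1% of the 18288 tested genes higher and 38.2% lower (adjusted p under 0.05), and after tryptophan depletion it called 36.1% of 17960 higher and 34.8% lower, so a call alone is not particular to these genes. The 2 groups of libraries did not overlap for 9 of 10 members after histidine depletion and for 10 of 10 after tryptophan depletion, beside 88.1% and 84.1% of all tested genes. The median log2 fold change of the members was 0.14 and 0.27, and that of all tested genes 0.010 and 0.013.

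**Figure D1:**
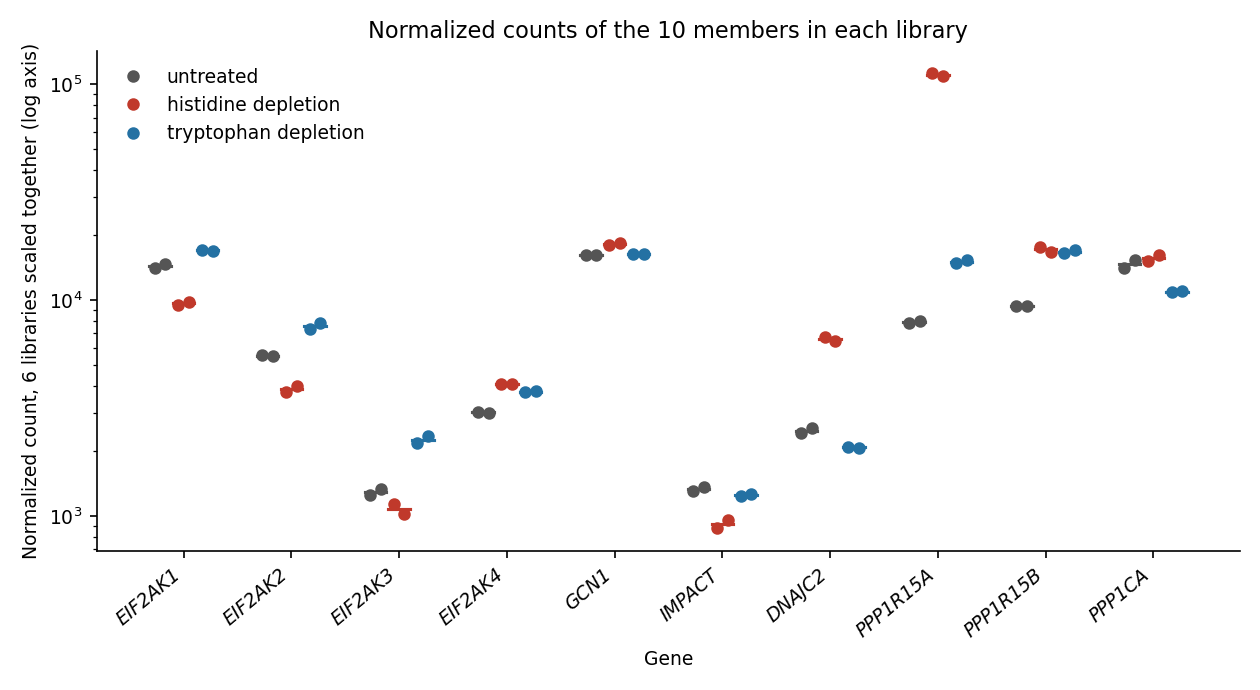
Normalized count (all 6 libraries scaled together, log axis) of each member in each library, with short lines at the condition means. PPP1R15A stands at 111972 and 108737 in the histidine-depleted libraries, above 7829 and 7954 in the untreated ones, and EIF2AK1, EIF2AK2 and EIF2AK3 lie below untreated after histidine depletion and above it after tryptophan depletion.

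The phosphatase side held the largest change. PPP1R15A (ENSG00000087074, chr19:48872212-48876059, plus strand, GRCh38), the inducible subunit that ends the stress response, had normalized counts of 7749 and 7903 in untreated libraries and of 111985 and 108269 after histidine depletion. Both depleted libraries thus lay far above both untreated ones, and the ratio of the means was 14.1. The log2 fold change was 3.81 (SE 0.054, adjusted p = 2.4e-25), larger in absolute size than that of 98.7% of tested genes. PPP1R15A took 0.192% and 0.186% of all reads in these libraries, against 0.0154% and 0.0152% in untreated cells. By counts per kilobase of exon it ranked 36 and 37 among 19892 protein-coding genes, against 808 and 850 in untreated libraries. Tryptophan depletion raised it too, from 7697 and 7821 to 14386 and 15016, a ratio of 1.90 and a log2 fold change of 0.92 (SE 0.047, adjusted p = 1.3e-40). With all libraries scaled together, PPP1R15A was 2.88 log2 units higher after histidine than after tryptophan depletion (SE 0.039, adjusted p = 8.7e-19).

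PPP1R15B (ENSG00000158615, chr1:204396492-204411887, minus strand), the constitutive subunit, rose by nearly the same amount in both depletions. Its normalized counts went from 9329 and 9296 to 17658 and 16614 without histidine (log2 fold change 0.88, SE 0.051, adjusted p = 7.2e-14). Without tryptophan they went from 9266 and 9199 to 15999 and 16799.8, a log2 fold change of 0.83 (SE 0.047, adjusted p = 7.6e-36). The depleted libraries lay above the untreated ones in both tables and overlapped each other. The direct difference between the depletions was 0.034 (SE 0.041, adjusted p = 0.453), and PPP1R15B was the only member whose difference between the depletions did not pass the test. With quantile normalization that difference was -0.11 (adjusted p = 0.012).

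The 2 subunit genes differ in the stretch before their start sites, which is shown because both genes rose in both depletions. RefSeq promoter windows (GRCh38.p14) of 250 bases before the start were at hand for 8 of 10 members, all but EIF2AK1 and PPP1CA. On both strands they were searched for TGATGNAA, a core of the element that ATF4 and C/EBP proteins bind, for TGACGTCA, the cAMP response element, and for the core of the interferon-stimulated response element. These were found in 3.14%, 1.65% and 3.02% of 35116 promoters of that length. Matches were found in 2 of the 8 members, at chr19:48872352-48872381 (plus strand) and chr1:204412026-204412055 (minus strand), printed here as 30 bases with the match in capitals.
PPP1R15A: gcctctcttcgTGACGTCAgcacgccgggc
PPP1R15B: cccgccccggcTGATGCAAcctcacgctgc
The PPP1R15A match lies 58 to 51 bases before the RefSeq start, inside a longer annotated transcript of the gene that begins further upstream. The PPP1R15B match lies 227 to 220 bases before the start. No 2 matches overlapped, and a match describes letters in a window, not binding.

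PPP1CA (ENSG00000172531, chr11:67398181-67421183, minus strand), a catalytic subunit of PP1 shared by very many phosphatase complexes, moved little without histidine and fell without tryptophan. In the histidine table its counts were 13872 and 15173 untreated and 15077 and 16099 depleted. The groups overlapped, and the log2 fold change of 0.10 (SE 0.055) did not pass the test (adjusted p = 0.092). It passed with edgeR (adjusted p = 0.041), with a replicate block (0.034) and without untreated replicate 2 (0.0037), and turned to -0.15 with quantile normalization (adjusted p = 0.0041). In the tryptophan table the counts fell from 13779 and 15015 to 10637 and 10753 (log2 fold change -0.43, SE 0.048, adjusted p = 7.4e-15). The direct difference was 0.51 (SE 0.046, adjusted p = 1.5e-08), higher without histidine. Exons of CARNS1, RAD9A and TBC1D10C on the other strand cover 17.97% of the exonic bases of PPP1CA, and the sources used here do not say whether strand was used in counting.

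Per kilobase of exon, and with all libraries scaled together, the 2 regulatory subunits summed to 3305 ± 20.4 normalized counts in untreated cells (SD, n = 2), to 33985 ± 739.9 without histidine and to 6174 ± 158 without tryptophan. PPP1R15A made up 69.6% ± 0.35 of that sum in untreated cells, 94.6% ± 0.098 without histidine and 70.9% ± 0.087 without tryptophan. The balance between the inducible and the constitutive subunit therefore shifted without histidine, whereas without tryptophan both subunits rose together. Among the PP1 catalytic subunits, PPP1CA made up 49.0% ± 0.29, 52.9% ± 0.99 and 46.5% ± 0.36, and PPP1CB 16.4% ± 0.21, 17.6% ± 0.56 and 25.4% ± 0.0092, in the same order of conditions. With the canonical transcript length PPP1CA made up 54.3%, 58.8% and 53.8%, PPP1CB 9.52%, 10.2% and 15.4%, and PPP1R15A 65.3%, 93.5% and 66.7% of its pair. Without tryptophan PPP1CB rose by 0.28 log2 units (adjusted p = 3.1e-08) while PPP1CC fell by 0.65 (adjusted p = 3.3e-26).

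**Figure D2:**
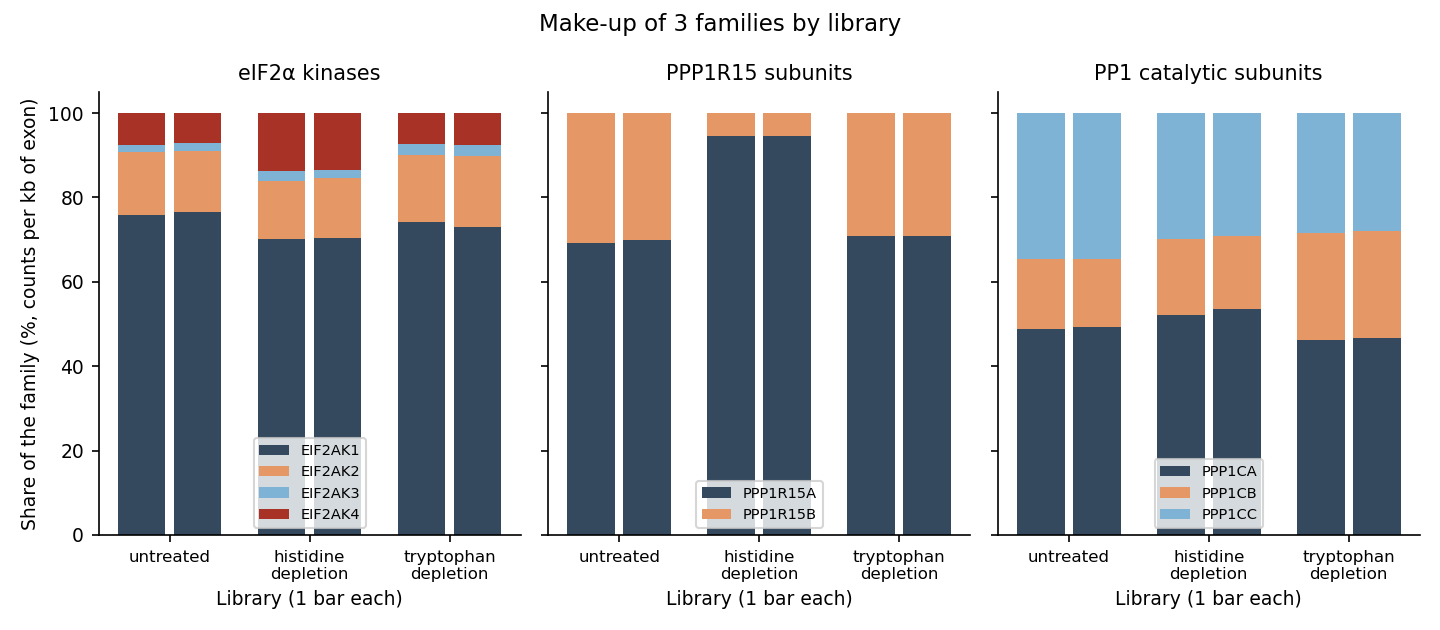
Share of each gene in the summed level of its family (counts per kilobase of exon, percent), 1 bar per library. PPP1R15A fills 94.5% and 94.7% of the PPP1R15 bars of histidine depletion, and the EIF2AK4 part of the kinase bars is 13.8% and 13.5% there, against 7.46% and 7.17% in untreated libraries.

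Among the kinases, EIF2AK4 was the only one higher than untreated in both depletions. EIF2AK4 (ENSG00000128829, chr15:39934115-40035591, plus strand) encodes GCN2, the kinase that senses amino acid shortage. Its counts rose from 2997 and 2976 to 4082 and 4069 without histidine (log2 fold change 0.45, SE 0.051, adjusted p = 1.9e-08). Without tryptophan they rose from 2977 and 2945 to 3635 and 3727 (log2 fold change 0.31, SE 0.049, adjusted p = 5.5e-09). Depleted and untreated libraries did not overlap in either table. Between the depletions EIF2AK4 differed by 0.12 (SE 0.041, adjusted p = 0.014), being higher without histidine. That call was lost when any 1 of the 4 depleted libraries was left out (adjusted p from 0.055 to 0.11), with quantile normalization (0.023, adjusted p = 0.56) and without the trend in limma (adjusted p = 0.051).

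The other kinases went in opposite directions in the 2 depletions. EIF2AK1 (ENSG00000086232, chr7:6022247-6059175, minus strand), the heme-regulated kinase HRI, fell from 13975 and 14557 to 9512 and 9728 without histidine (log2 fold change -0.57, SE 0.050, adjusted p = 2.2e-10). Without tryptophan it rose from 13881 and 14406 to 16627 and 16607 (log2 fold change 0.23, SE 0.048, adjusted p = 6.7e-06), a value of 0.13 with quantile normalization (adjusted p = 0.00058). The 3 conditions were separate in every library, and the direct difference was -0.82 (SE 0.038, adjusted p = 2.0e-12). Exons of AIMP2 on the other strand cover 9.69% of its exonic bases, and 1 annotated pseudogene, EIF2AK1P1, bears its name, so its reads may be shared.

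EIF2AK2 (ENSG00000055332, chr2:37099210-37157522, minus strand) encodes PKR, which is itself an interferon-induced gene. It fell from 5478 and 5489 to 3761 and 3971 without histidine (log2 fold change -0.50, SE 0.051, adjusted p = 2.6e-09). It rose from 5442 and 5432 to 7139 and 7695 without tryptophan (log2 fold change 0.45, SE 0.047, adjusted p = 3.5e-16). Both untreated libraries lay between the depletions, whose difference was -0.97 (SE 0.044, adjusted p = 1.4e-12).

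EIF2AK3 (ENSG00000172071, chr2:88556741-88691518, minus strand), the gene of the endoplasmic reticulum kinase PERK, was higher without tryptophan and lower without histidine. Without tryptophan it rose from 1224 and 1311 to 2119 and 2295, a log2 fold change of 0.80 (SE 0.056, adjusted p = 3.9e-28). Without histidine it went from 1232 and 1325 to 1140.4 and 1012, a log2 fold change of -0.25 (SE 0.069, adjusted p = 0.0021). That decrease did not pass the test without histidine replicate 2 (-0.16, adjusted p = 0.092), with quantile normalization (-0.14, adjusted p = 0.078) or without the trend in limma (adjusted p = 0.079). The direct difference between the depletions was -1.07 (SE 0.062, adjusted p = 4.1e-11).

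Levels of the kinases can be compared with each other only per length. Per kilobase of exon, with all libraries scaled together, EIF2AK1 was the most abundant in every library, at 2619 ± 68.4 normalized counts in untreated cells, 1755 ± 33.3 without histidine and 3093 ± 20.9 without tryptophan (SD, n = 2). EIF2AK2 followed at 501 ± 0.69, 351 ± 14.6 and 687 ± 32.3, then EIF2AK4 at 251 ± 1.94, 341 ± 0.30 and 314 ± 3.71, and EIF2AK3 was lowest at 62.3 ± 3.04, 52.1 ± 4.23 and 109 ± 5.501. Without histidine the levels of EIF2AK2 and EIF2AK4 differed by less than the spread between replicates. The sum of the 4 kinases was 3434 ± 68.8 in untreated cells, 2499 ± 44.02 without histidine and 4203 ± 20.6 without tryptophan. The share of EIF2AK4 in it was 7.32% ± 0.20, 13.6% ± 0.23 and 7.47% ± 0.052, so its part was greater without histidine and close to untreated without tryptophan. These shares depend on the length used: with the canonical transcript in place of the exon union, EIF2AK4 made up 11.7%, 20.8% and 11.7% and EIF2AK3 6.12%, 6.70% and 8.59%. On that length EIF2AK4 stood above EIF2AK2 without histidine, at 737 and 388 normalized counts per kilobase.

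Among the proteins around GCN2, DNAJC2 had the largest change without histidine. DNAJC2 (ENSG00000105821, chr7:103312289-103344830, minus strand), a J-domain protein that helps the chaperone Hsp70 on nascent chains at the ribosome, had counts of 2389.8 and 2535 in untreated cells and of 6701 and 6398 without histidine. Both depleted libraries lay above both untreated ones, the ratio of the means was 2.66, and the log2 fold change was 1.41 (SE 0.052, adjusted p = 1.4e-17). Without tryptophan it fell from 2374 and 2509 to 2027 and 2029 (log2 fold change -0.27, SE 0.052, adjusted p = 2.3e-06). The direct difference was 1.66 (SE 0.045, adjusted p = 1.3e-15). Exons of PMPCB and of an unnamed gene on the other strand cover 21.1% of the exonic bases of DNAJC2.

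GCN1 (ENSG00000089154, chr12:120127202-120194715, minus strand) encodes the ribosome-bound activator of GCN2. Its counts were 15967 and 16044 untreated and 17906 and 18336 without histidine (log2 fold change 0.18, SE 0.050, adjusted p = 0.0026). That call was lost when either histidine-depleted library was left out (adjusted p = 0.080 without replicate 1 and 0.15 without replicate 2) and turned to -0.084 with quantile normalization (adjusted p = 0.028). In the tryptophan table counts of 15859.6 and 15877 stood beside 15977 and 15991, a log2 fold change of 0.011 (SE 0.048, adjusted p = 0.85), which turned to -0.082 with quantile normalization (adjusted p = 0.019). Compared directly, GCN1 was 0.15 higher without histidine (SE 0.037, adjusted p = 0.0014), and 0.0024 with quantile normalization (adjusted p = 0.94).

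IMPACT (ENSG00000154059, chr18:24426634-24453531, plus strand), which binds GCN1 and holds back GCN2 activation, fell from 1286 and 1345 to 876 and 949 without histidine (log2 fold change -0.53, SE 0.066, adjusted p = 1.1e-07). Without tryptophan counts of 1278 and 1331 stood beside 1208 and 1241 (log2 fold change -0.091, SE 0.059), which did not pass the test (adjusted p = 0.16). Between the depletions IMPACT differed by -0.45 (SE 0.058, adjusted p = 1.6e-06).

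Compared directly, histidine depletion gave higher counts than tryptophan depletion for 5 members (PPP1R15A, DNAJC2, PPP1CA, GCN1 and EIF2AK4) and lower counts for 4 (EIF2AK3, EIF2AK2, EIF2AK1 and IMPACT). Over the 18264 genes tested, limma called 38.7% higher and 38.0% lower. The libraries of the depletions did not overlap for 9 of 10 members, beside 88.6% of all tested genes. The contrast does not use the means of the untreated libraries, which both other comparisons share.

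**Figure D3:**
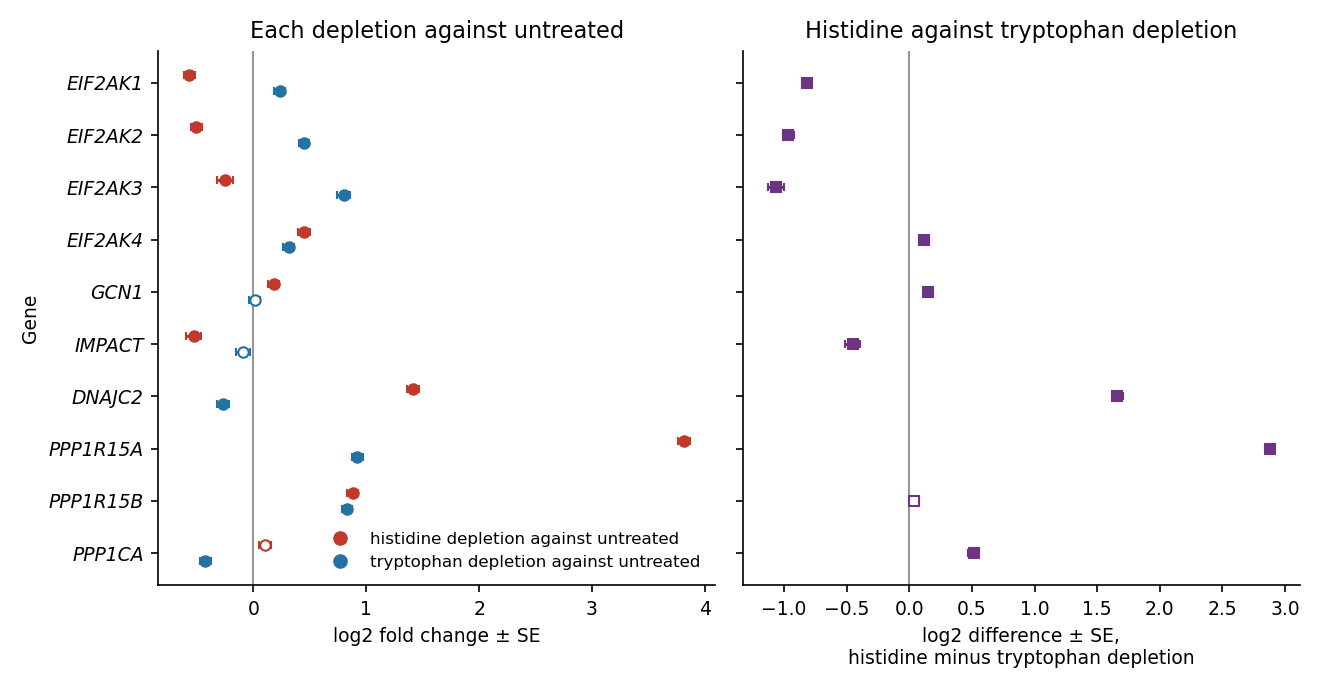
Left, log2 fold change ± SE of each member against untreated cells in each depletion; right, log2 difference ± SE between histidine and tryptophan depletion. Filled symbols passed the test and open ones did not; PPP1R15A lies at 3.81 and 0.92 on the left, and PPP1R15B is the open square at 0.034 on the right.

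The substrate of the kinases and the factor it inhibits were followed in a list of 8 subunits of eIF2 and of eIF2B, the exchange factor that recharges eIF2 with GTP. The counts of this and the next lists stand beside 39.1% of all tested genes higher and 38.2% lower without histidine, and beside 36.1% higher and 34.8% lower without tryptophan. After histidine depletion 7 of 8 rose and 1 fell (median log2 fold change 0.48), and after tryptophan depletion 3 rose and 3 fell (median 0.026). EIF2S1, which encodes eIF2alpha itself, rose by 1.67 log2 units without histidine (SE 0.049, adjusted p = 1.7e-19), from a mean of 4109.5 to 13033 normalized counts. Without tryptophan it rose by 0.43 (SE 0.047, adjusted p = 2.8e-15), from 4074 to 5502. The mRNA of the substrate was thus higher in both depletions. EIF2S3, the gamma subunit, rose by 0.45 without histidine (0.17 with quantile normalization) and fell by 0.62 without tryptophan, and EIF2B4 rose in both, by 0.78 and 0.70. EIF2B2 rose by 0.83 without histidine and showed 0.097 without tryptophan (adjusted p = 0.14), which passed without untreated replicate 2 (0.15, adjusted p = 0.015) and with quantile normalization (0.16, adjusted p = 0.013).

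In the list of 12 GCN2 partners, ribosomal P-stalk proteins and sensors of collided ribosomes, 3 rose and 7 fell without histidine (median -0.28), and 3 rose and 3 fell without tryptophan (median 0.019). EDF1, which binds collided ribosomes, rose by 1.04 without histidine (adjusted p = 5.2e-15) and showed 0.065 without tryptophan (adjusted p = 0.21), which passed without untreated replicate 2 (0.12, adjusted p = 0.00064). MAP3K20, the ribotoxic stress kinase ZAK, fell by 0.97 without tryptophan (adjusted p = 9.0e-43) and by 0.32 without histidine (-0.55 with quantile normalization). ZNF598, a ubiquitin ligase of collided ribosomes, and RWDD1 both fell without histidine (-0.26 and -0.70) and rose without tryptophan (0.46 and 0.27). HSPA14, which forms a ribosome-associated complex with DNAJC2, fell by 0.76 without histidine, and GIGYF2, a repressor of translation recruited to collided ribosomes, rose by 0.53 without tryptophan.

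Of 11 regulators of PKR and sensors of double-stranded RNA, 10 were tested, and 7 rose and 3 fell without histidine (median 0.54) while 8 rose and 2 fell without tryptophan (median 1.08). IFIH1, the RNA sensor MDA5, rose by 1.79 and 1.59 (adjusted p = 1.2e-17 and 1.1e-49). DNAJC3, which encodes the kinase inhibitor p58IPK, rose by 0.99 and 1.10. OAS3 rose by 0.82 without histidine and fell by 0.27 without tryptophan, the latter not passing the test without tryptophan replicate 1 (-0.14, adjusted p = 0.11) or without the trend in limma (adjusted p = 0.11). ADAR, which edits double-stranded RNA and keeps PKR in check, fell by 0.45 without histidine (adjusted p = 2.3e-08) and rose by 0.17 without tryptophan (adjusted p = 0.0012). The latter call was lost without tryptophan replicate 1 (adjusted p = 0.051), without tryptophan replicate 2 (0.13, adjusted p = 0.25) and without the trend in limma (adjusted p = 0.070).

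In the list of 6 genes of the PERK pathway and other sensors of endoplasmic reticulum stress, all 6 rose without tryptophan (median 1.47), while 4 rose and none fell without histidine (median 0.24). HSPA5, the chaperone BiP that holds PERK inactive, rose by 1.74 without tryptophan, from 32738 ± 1520.1 to 109414 ± 2447 normalized counts (adjusted p = 6.9e-60), and by 0.73 without histidine (adjusted p = 3.6e-11; 0.41 with quantile normalization). ERN1, the sensor IRE1, rose by 1.63 and 0.22, the latter not passing the test without the trend in limma (adjusted p = 0.063). SIL1, a nucleotide exchange factor of BiP, rose by 1.63 without tryptophan and showed -0.11 without histidine (adjusted p = 0.32), which passed without untreated replicate 1 (-0.28, adjusted p = 0.018). Compared directly, 5 of the 6 genes were lower without histidine than without tryptophan, as EIF2AK3 was, and none was higher, beside 38.0% of all tested genes lower and 38.7% higher in that comparison.

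Of 8 other PP1 genes, 6 rose and 1 fell without histidine (median 0.82), and 4 rose and 3 fell without tryptophan (median 0.18). PPP1R11, an inhibitor of PP1, rose by 1.84 without histidine, from 3353 ± 209 to 11984 ± 40.3 normalized counts (adjusted p = 8.5e-20), and by 0.58 without tryptophan. PPP1R10 and PPP1R8, which hold PP1 in the nucleus, rose by 1.12 and 0.97 without histidine and fell by 0.20 and 0.46 without tryptophan. PPP1R2, another inhibitor, rose in both, by 0.76 and 0.92.

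Downstream of eIF2alpha, a list of 15 held ATF4, the transcription factor whose translation rises when eIF2alpha is phosphorylated, and its target genes. Without tryptophan 13 of 15 rose and 1 fell (median 1.06), and without histidine 3 rose and 7 fell (median -0.10), where 39.1% of all tested genes were higher and 38.2% lower. PPP1R15A, itself a gene of this response, rose without histidine, while NUPR1 fell by 1.75 (adjusted p = 3.5e-15) and TRIB3 by 0.76 (adjusted p = 3.3e-11), and ATF3 rose by 1.49 (adjusted p = 3.2e-18) and DDIT3 by 0.69. Without tryptophan DDIT3, which encodes CHOP, an activator of PPP1R15A, rose by 1.99, VLDLR by 1.84 and TRIB3 by 1.06. FGF21 rose there from a mean of 38.0 to 344 normalized counts, a log2 fold change of 3.19 (adjusted p = 1.6e-40). The mRNA of ATF4 itself fell by 0.28 without histidine (adjusted p = 5.9e-05; -0.56 with quantile normalization) and showed 0.011 without tryptophan (adjusted p = 0.86), which was a called decrease with quantile normalization (-0.18, adjusted p = 6.2e-05). Compared directly, 13 of 15 genes were lower without histidine than without tryptophan and 1, ATF3, was higher, beside 38.0% and 38.7% of all tested genes.

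**Figure D4:**
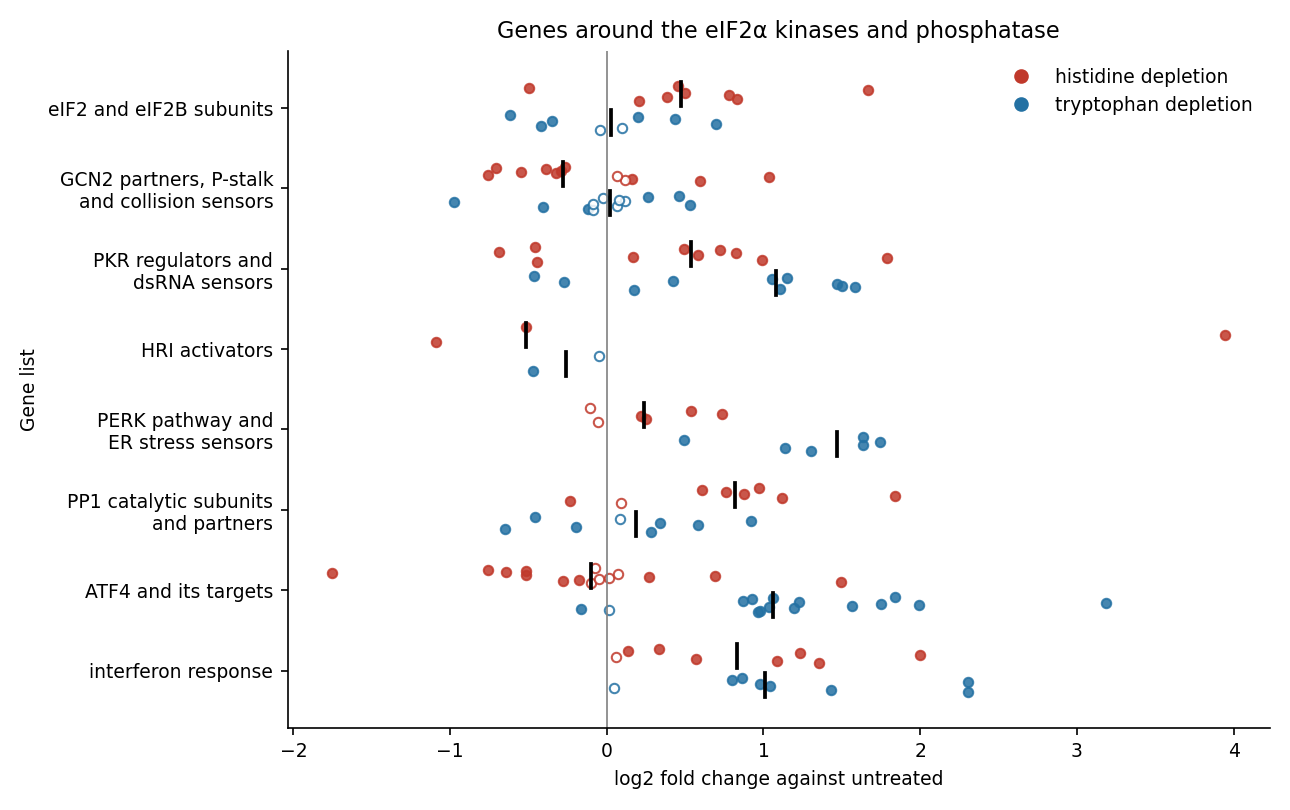
Log2 fold change of each tested gene of the 8 lists against untreated cells, filled where the test was passed, with a bar at the median of each list. The ATF4 list has its median at -0.10 without histidine and 1.06 without tryptophan, and the PERK list at 0.24 and 1.47.

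The coding sequences of the members were compared for the 2 missing amino acids. Among 19609 coding sequences of GENCODE 44 the median share of histidine codons was 2.43% and that of tryptophan codons 1.12%. EIF2AK4 had the highest share of histidine among the members, with 50 histidine codons of 1649 (3.03%, the 71.4th percentile), and EIF2AK1 had 18 of 630 (2.86%). The other 8 members had 1.61% to 2.15%, under the median of all coding sequences. PPP1R15A stood out for tryptophan, with 19 codons of 674 (2.82%, the 94.0th percentile), beside 13 of 713 for PPP1R15B (1.82%). EIF2AK2 had the lowest share, with 3 tryptophan codons of 551 (0.54%). These are properties of the sequence, and how they bear on translation was not measured by RNA-seq.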

How the data were processed

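Polyadenylated RNA of 6 HT29 samples was sequenced from stranded libraries with adapters that carry unique molecular identifiers. Per the labels, the authors used STAR 2.7.10a, HTSeq 2.0.5 and DESeq2, on GRCh38. The deposited values are counts after DESeq2 normalization, a signal of 0 or more, with 1 table for each depletion and the same untreated libraries in both. Whether strand and molecular identifiers entered the counting is not given in the sources used here. Since each table has its own normalization, the main tests of depleted against untreated libraries stayed inside a table.

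Within a library, every value was a whole multiple of 1 step (100% of values, tolerance 0.001), so reads could be recovered. Median-of-ratios size factors over all 6 libraries put these reads on a common scale for histidine against tryptophan depletion, for levels per kilobase and shares, and for the plot of counts by library. Symbols, coordinates and exon lengths came from GENCODE 44, which holds 60357 of the 60676 identifiers. The 319 others were kept in the tests.

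Tests used limma 3.58.1 (R 4.3.3, with trend, two-sided) on log2(normalized count + 1). A gene was tested where its mean over the compared libraries was 10 or more, and p-values were adjusted over all tested genes by Benjamini-Hochberg, with a threshold of 0.05. Changes of low genes are understated on this scale. As alternatives, the pseudocount was set to 0.5 or 8, the filter was dropped or raised to 50, the trend was left out, quantile normalization was applied, a replicate block was added, all 6 libraries were fitted together, a limit of 0.5 was put on the log2 fold change, and each library was left out. On recovered reads edgeR 4.0.16 and DESeq2 1.42.0 were run. A crossed block and the canonical transcript length were added after seeing the data. The scripts were tested on simulated counts. Tables were made with Python 3.11.15 (pandas 2.3.3, numpy 2.4.6) and plots with matplotlib 3.10.9.

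The members and gene lists were chosen with earlier results of these data known. Every member is named. From each list, for each depletion, the rule takes up to 3 genes with the largest absolute change that passed the test, did not overlap and had a higher-group mean of 100 or more, and it adds EIF2S1, PPP1CB, PPP1CC, ATF4, DDIT3, ADAR and HSPA5. Protein sequences were not used here.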

Additional observations from a re-analysis of the deposited data

Results flagged for a closer look

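These results are listed because the response differed between the depletions by a direct test (limma on all 6 libraries, adjusted p under 0.05). Values are log2 differences, histidine minus tryptophan depletion. Among the members, 9 of 10 met this: PPP1R15A (2.88), DNAJC2 (1.66), PPP1CA (0.51), GCN1 (0.15) and EIF2AK4 (0.12) were higher without histidine. EIF2AK3 (-1.07), EIF2AK2 (-0.97), EIF2AK1 (-0.82) and IMPACT (-0.45) were lower. As 38.7% of all tested genes were called higher and 38.0% lower in this comparison, such a difference is common in these data. The base media of the depletions differ too, so amino acid and medium cannot be told apart here. With quantile normalization GCN1 showed 0.0024 and its call was lost (limma adjusted p = 0.94). The call of EIF2AK4 was lost when any 1 of the 4 depleted libraries was left out (adjusted p from 0.055 to 0.11).

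A further 9 named genes are listed because, besides the direct test, their calls against untreated cells had opposite signs in these 2 comparisons, which share the untreated libraries. EIF2S3 (1.05), OAS3 (1.08), PPP1R10 (1.30) and PPP1R8 (1.41) were higher without histidine. NUPR1 (-2.99), TRIB3 (-1.83), RWDD1 (-0.99), ZNF598 (-0.74) and ADAR (-0.64) were lower. For ADAR and OAS3 the sign after tryptophan depletion rests on weak calls: ADAR did not pass without either tryptophan-depleted library (adjusted p = 0.051 and 0.25), and OAS3 did not pass without tryptophan replicate 1 (adjusted p = 0.11). Groups of 2 libraries are too small to single out a library that stands apart.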

How the results depend on the processing

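Of 440 repeats of the members' log2 fold changes under other settings, 420 kept their direction and their side of the threshold, 12 no longer passed, 3 newly passed and 5 changed sign. With a limit of 0.5 on the absolute log2 fold change, 3 members were higher after histidine depletion, 3 higher and 0 lower after tryptophan depletion and 3 higher in histidine than in tryptophan depletion, and the counts over all genes were 5272 up and 5251 down in histidine depletion, 3810 up and 3798 down in tryptophan depletion and 5200 up and 5164 down between the depletions. With quantile normalization 3 members were higher in histidine than in tryptophan depletion. It turned the sign of GCN1 (-0.084), PPP1CA (-0.15), GIGYF2 (-0.088), SIL1 (0.14), VLDLR (0.14) and PPP1CB (-0.15) after histidine depletion, of GCN1 (-0.082), HSPA14 (0.0029), OMA1 (0.077) and ATF4 (-0.18) after tryptophan depletion, and of PPP1R15B (-0.11) between the depletions. Without changing a call it moved further values by over 1.5 times, of which some examples are given, not all. After histidine depletion these include EIF2S3 (0.17), MAP3K20 (-0.55), OAS1 (0.28), OMA1 (-0.30), HSPA5 (0.41), ERN1 (0.13), ATF4 (-0.56) and ADAR (-0.69), and after tryptophan depletion EIF2AK1 (0.13). The cause was not tested. Leaving out 1 library turned the sign of some small values that had not passed the test. SIL1 ranged from -0.28 to 0.067 and FGF21 from -0.27 to 0.41 after histidine depletion, OMA1 from -0.10 to 0.0029 and ATF4 from -0.0042 to 0.027 after tryptophan depletion, and PPP1R15B from -0.0065 to 0.075 and NCK1 from -0.027 to 0.083 between the depletions.

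The labels give each condition samples 1 and 2. Deviations of sample 1 from its condition mean, over 12480 genes, correlated at 0.12 between untreated and histidine-depleted, -0.053 between untreated and tryptophan-depleted and -0.10 between the depleted samples, so with 2 pairs the numbers were not taken as pairs. With a replicate block, 7311 genes were higher and 7121 lower in histidine depletion, 6501 and 6265 in tryptophan depletion, and 7095 and 6974 between the depletions. Exchanging the tryptophan-depleted numbers gave 7165 and 7027, a pairing tried after seeing the data. Counts of reads per member were 937 or more in every library, the lowest for IMPACT, where counting error is the largest.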

Other observations

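EIF2AK2 is itself induced by interferon, and a list of 8 genes of the interferon response was read beside it. Without histidine 7 of 8 rose and none fell (median 0.83), and without tryptophan likewise 7 rose and none fell (median 1.01), beside 39.1% and 36.1% of all tested genes called higher. ISG15, a ubiquitin-like modifier, rose by 2.00 log2 units without histidine and by 0.98 without tryptophan, MX1 by 1.23 and 2.31, IFI6 by 1.35 and 2.30 and IFIT1 by 1.09 and 1.43. EIF2AK2 followed the direction of these genes without tryptophan (0.45) and went against it without histidine (-0.50).

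Of the 3 genes listed as activators of HRI, 2 fell without histidine, DELE1 and OMA1, and 1 of these, DELE1, fell without tryptophan. Over all tested genes limma called 38.2% and 34.8% lower. The other gene, HSPB8, a small heat shock protein, was named after its values were seen. It passed the filter only through the histidine-depleted libraries, so its call is not read as a result. It had few reads, 0 and 7 in untreated libraries, 40 and 49 without histidine and 4 and 6 without tryptophan. As 1 untreated library was at 0, a fold change would rest on the pseudocount and is not given. DELE1, the mitochondrial protein that binds HRI after import fails, fell in both depletions, by 1.09 without histidine and by 0.47 without tryptophan. OMA1, the protease that cleaves DELE1, fell by 0.52 without histidine (-0.30 with quantile normalization). Without tryptophan OMA1 showed -0.050 (limma adjusted p = 0.56), which turned to 0.077 with quantile normalization. EIF2AK1 fell without histidine (-0.57) and rose without tryptophan (0.23). Among PKR regulators the 2'-5' oligoadenylate synthetases OAS1 and OAS2 rose by 1.499 and 1.47 without tryptophan and by 0.17 and 0.58 without histidine. Without histidine the call of OAS1 was lost in 5 of 14 alternatives (limma adjusted p up to 0.30, without histidine replicate 2; 0.057 without untreated replicate 1), and that of OAS2 in 2 of 14 (0.33 with adjusted p = 0.053 without histidine replicate 2, and adjusted p = 0.084 without the trend).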
